A study of Mus musculus with 6 samples.

Results

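Ribosomal protein genes encode the proteins that, together with rRNA, build the cytosolic ribosome. The genes described here were all those of the exon class whose symbol is Rpl or Rps followed by a digit, and Rplp0, Rplp1, Rplp2 and Rpsa, with pseudogenes and the S6 kinase genes left out. The rule found 85 of the 19453 genes with exon reads, 51 of them Rpl genes of the large subunit and 34 Rps genes of the small subunit. Their exons made up 1911 of the 480196 exon features, and 1115 of these had counts of their own. The rule read names only, so it also took Rps19bp1, which encodes a binding protein of Rps19 and not a ribosomal protein, and it passed over Fau and Rack1, whose products include ribosomal proteins under other names.

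The reads came from eCLIP, a method in which ultraviolet light links RNA to a protein, the protein is pulled out of the lysate, and the RNA that came with it is sequenced. The protein was mouse Gtsf1 (Asterix), from a family of short zinc-finger proteins that act in piRNA silencing, carrying a C-terminal TEV-Strep tag and produced from the pEF vector by transient transfection. The cells were P19, a mouse embryonal carcinoma line, and all 6 libraries are labelled as this tagged protein in these cells, 48 h after transfection. The groups were crosslinked pull-down (254 nm, 400 mJ, MagStrep beads, n = 2), crosslinked input (the same light, no beads, n = 2), non-crosslinked pull-down (no light, MagStrep beads, n = 1) and non-crosslinked input (no light, no beads, n = 1). The protein came from a plasmid and not from its own gene, and none of these libraries is of cells without the tag. The labels do not say that libraries with the same treatment came from separate cultures, so p-values measure the spread between these libraries, which may be technical.

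Messenger RNAs of ribosomal proteins are among the most abundant in growing cells. They usually start with an uninterrupted run of C and U, the 5′ terminal oligopyrimidine (TOP) tract, through which growth signals control their translation. Many of these genes also carry small nucleolar RNAs (snoRNAs) inside their introns, where the host's transcription and splicing release them. A snoRNA guides the modification of rRNA: C/D box snoRNAs direct methylation of the ribose, and H/ACA box snoRNAs direct the change of uridine to pseudouridine. Because the same transcript is spliced to mRNA and cut to snoRNA, exon, intron, pre-mRNA and snoRNA reads of a gene are read side by side here.

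The libraries held between 13168593 and 18418166 reads, so 1 read was worth between 0.0543 and 0.0759 RPM, the reads of a feature scaled to a library of fixed size, and rRNA took between 58.2% and 70.1% of them. Reads without annotation made up between 6.99% and 14.4%, and were more frequent in the pull-downs than in the inputs. Exon reads of Gtsf1 can come from the plasmid and from the cell's own gene. They stood at 5.87 and 5.65 RPM in the crosslinked inputs and 14.6 and 34.6 RPM in the crosslinked pull-downs. Both libraries made without light were lower (input 2.72 RPM, pull-down 1.92 RPM). Of the 8 markers of embryonal carcinoma, 6 reached 1 RPM in every library (sum of the list between 42.5 and 83.9 RPM), among them Pou5f1, Sox2 and Lin28a. None of the cardiac, liver, fibroblast or blood markers did so, and of the 4 neuron markers only Tubb3 did.

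As a group, ribosomal protein exons took a somewhat smaller share of all reads in the pull-downs than in the inputs, with a median gene ratio close to that of all genes. They held 0.167% and 0.142% of all reads in the crosslinked inputs (95% Wilson intervals 0.165 to 0.169% and 0.140 to 0.143%), and 0.117% and 0.138% in the crosslinked pull-downs (0.116 to 0.119% and 0.136 to 0.140%). Both pull-downs were below both inputs. The mean share was 0.128 ± 0.0146% against 0.154 ± 0.0180% (SD, n = 2 each), a ratio of 0.827, and the two-sided exact permutation test gave a p of 0.333, the smallest that these 4 libraries allow. The ratio was 0.702 for the libraries numbered 1 and 0.974 for those numbered 2. Without light the share was 0.132% before (0.130 to 0.133%) and 0.109% after the beads (0.107 to 0.111%), which gives 0.828. Intervals cover counting error only, since reads from amplified libraries are not independent molecules. Whether the groups overlapped depended on the total. With rRNA left out, the share was 0.410 and 0.360% in the crosslinked inputs and 0.285 and 0.330% in the pull-downs, again with no overlap. Of annotated reads, which exclude the unannotated ones, the share was 0.18 and 0.155% in the crosslinked inputs and 0.134 and 0.161% in the pull-downs. Of the exon reads of all genes it was 3.46 and 3.16% against 2.79 and 3.32%. With both of these totals the groups overlapped. The share of exon reads sums all features, identical ones included, while the other shares count identical features once. With all features summed, the share of all reads was 0.210 and 0.176% in the crosslinked inputs and 0.149 and 0.175% in the pull-downs.

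Of the 85 genes, 83 had reads in each input and each non-crosslinked library, and all 85 in both crosslinked pull-downs. Levels averaged 1 RPM or more in the 4 crosslinked libraries for 81, which were tested with edgeR's quasi-likelihood test among 7532 genes. The remaining 4 were Rpl3l, the muscle paralog of Rpl3, Rpl10l, a paralog of Rpl10 known from testis, Rps27l and Rps19bp1. Rpl3l and Rpl10l were at 0 in both crosslinked inputs and both non-crosslinked libraries and no higher than 0.0395 and 0.0827 RPM in the crosslinked pull-downs, near the worth of 1 read. Rps27l had 0.324 and 0.0814 RPM in the crosslinked inputs and 0.289 and 0.784 RPM in the pull-downs, and Rps19bp1 had 0.382 and 0.217 RPM against 0.496 and 0.484 RPM.

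The log2 ratio of crosslinked pull-down over input had a median of -0.12 over the 81 genes, beside -0.16 over all 7532 genes tested. It was -0.10 for the large subunit (49 genes) and -0.12 for the small subunit (32 genes), and 65 of the 81 ratios lay within 0.5 of 0. Against the mean input, pull-down 1 had a median of -0.23 and pull-down 2 had -0.03, a spread (SD 0.14) as large as the median itself. The sign of this median also depended on the scaling: it was 0.041 with TMM factors, which moved the median of all genes from -0.16 to -3.07e-05, and 0.039 with DESeq2's size factors. Both pull-downs lay below both inputs for 37 of the 81 genes, where 48.8% of all genes did, and above both inputs for 5, where 9.67% did.

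**Figure D1:**
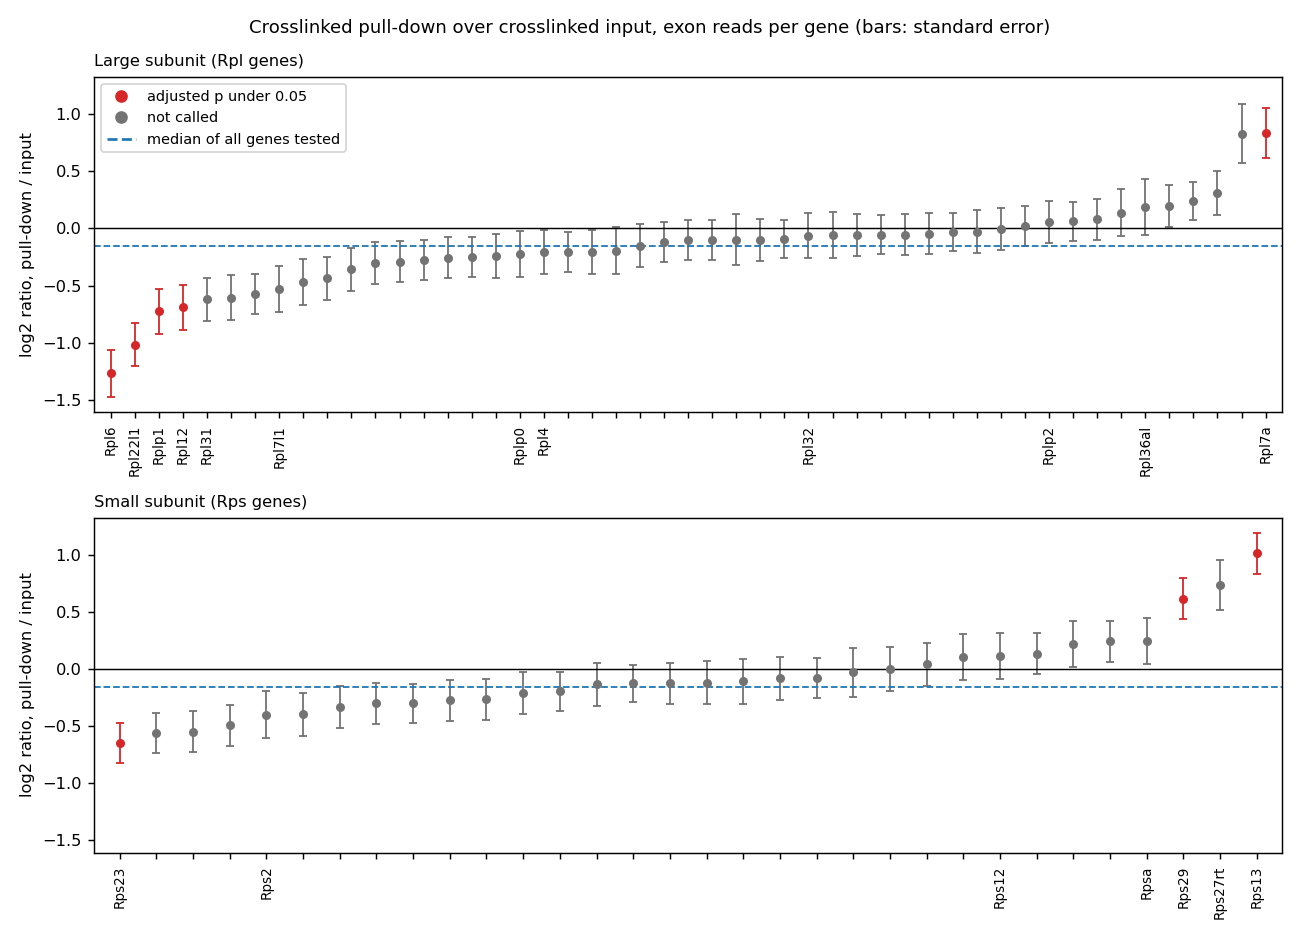
Log2 ratio of crosslinked pull-down over crosslinked input for each of the 81 tested ribosomal protein genes, from edgeR, with bars of 1 standard error; red marks an adjusted p under 0.05 the dashed line is the median of all genes tested (-0.16), and labels are given for genes chosen by the naming rule. Most genes lie near that line, Rpl6 and Rpl22l1 stand lowest and Rps13 and Rpl7a are the highest called genes.

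At an adjusted p under 0.05 the test called 8 genes, 3 higher and 5 lower in the pull-down. That is 3 of 81 where 3.97% of all genes were called higher, and 5 of 81 where 2.07% were called lower; 20 of the 81 had an unadjusted p under 0.05, as did 21% of all genes. Without pull-down 1 the counts were 3 and 2, without pull-down 2 they were 1 and 6, without input 1 they were 2 and 2, and without input 2 they were 2 and 8. Scaling moved the split as well, to 5 and 2 with TMM factors, 4 and 2 with rRNA left out of the library sizes, 2 and 1 with DESeq2, and 2 and 11 with unannotated reads in the library sizes. The genes called higher were Rps13, Rpl7a and Rps29, and those called lower were Rpl6, Rpl22l1, Rplp1, Rpl12 and Rps23. In all 8, both crosslinked pull-downs lay on the same side of both crosslinked inputs, and the single non-crosslinked pull-down lay on that side of its own input.

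The promoters of 6 of these genes are in the RefSeq table of GRCm38.p6, and the 30 bases around their annotated starts (10 before and 20 from the start on) are printed as a view of where the TOP tract would begin. Capitals mark the longest run of at least 6 bases that are each C or T, read on the strand of the gene. For Rpl7a the start in that table lies inside the RefSeq span of the gene, downstream of the span's first base.
Rpl6: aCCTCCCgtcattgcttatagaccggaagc
Rpl22l1: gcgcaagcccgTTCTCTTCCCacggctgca
Rpl12: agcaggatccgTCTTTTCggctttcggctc
Rps23: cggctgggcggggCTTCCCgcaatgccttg
Rpl7a: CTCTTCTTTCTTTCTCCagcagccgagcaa
Rps13: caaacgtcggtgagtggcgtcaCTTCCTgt
They lie at chr5:121204491-121204520, chr3:28805498-28805527, chr2:32961702-32961731, chr13:90923112-90923141 and chr2:26910797-26910826 on the plus strand and, for Rps13, chr7:116334171-116334200 on the minus strand. The run reached across or next to the annotated start in Rpl12, Rpl22l1 and Rpl7a and lay apart from it in Rpl6, Rps23 and Rps13. Such a run was present in this window for 38 of the 65 ribosomal protein genes that the table lists (58.5%), against 8678 of all its 27025 genes (32.1%). The median log2 ratio was -0.11 for the 37 tested genes with a run and -0.11 for the 24 without. All 6 called genes in the table had one, 2 of them called higher and 4 lower, and Rplp1 and Rps29 are not listed there. A run of these letters is a description and not a mapped tract.

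Among the genes called lower, Rpl6 had the most reads and the lowest ratio. Rpl6, a protein of the large subunit (Entrez gene 19988, chr5:121204501-121209241), had 82.9 and 90.1 RPM in the crosslinked inputs, the highest level by reads of any ribosomal protein gene, and 29.9 and 37.5 RPM in the crosslinked pull-downs. The means were 86.5 ± 5.05 and 33.7 ± 5.37 RPM (SD, n = 2 each), with a log2 ratio of -1.27 (SE 0.21, edgeR's adjusted p 0.000389), 2.41-fold less in the pull-down. Without crosslinking it had 92.1 RPM before and 39.1 RPM after the beads. The 3 pull-downs are thus all low and the 3 inputs all high, with no overlap.

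Rpl22l1 (chr3:28805508-28807424) encodes a close relative of the large subunit protein Rpl22. Its crosslinked inputs had 13.4 and 9.56 RPM and its pull-downs 5.61 and 5.02 RPM, beside 10.1 and 6.23 RPM without light. No pull-down reached an input (log2 ratio -1.02, SE 0.19, edgeR's adjusted p 0.00148). Rpl22 itself had 9.25 and 8.15 RPM against 7.78 and 7.61 RPM and was not called (log2 ratio -0.09, adjusted p 0.796). The difference between these 2 genes was not tested.

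Rplp1 and Rpl12 belong to the stalk of the large subunit, the arm that recruits the translation factors that hydrolyse GTP: Rplp0 anchors Rplp1 and Rplp2 there, and Rpl12 sits at its base. Rplp1 (chr9:61913283-61914510) had 39.3 and 34.6 RPM in the crosslinked inputs and 17.7 and 24.2 RPM in the pull-downs (log2 ratio -0.73, SE 0.20, adjusted p 0.0339). Rpl12 (chr2:32961712-32964045) had 70.6 and 66.0 RPM against 35.1 and 44.2 RPM (log2 ratio -0.69, SE 0.20, adjusted p 0.0479). The other stalk genes were not called: Rplp0 had 53.7 and 41.6 RPM against 33.0 and 43.4 RPM, and Rplp2 had 11.3 and 8.28 RPM against 8.63 and 10.4 RPM, so that pull-downs and inputs overlapped in both (adjusted p 0.572 and 0.898). Without crosslinking, input and pull-down had 46.0 and 21.2 RPM for Rplp1, 79.0 and 37.3 RPM for Rpl12, 36.7 and 25.4 RPM for Rplp0, and 6.38 and 7.19 RPM for Rplp2.

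Rps23, a protein near the decoding centre of the small subunit (chr13:90923122-90924732), had 16.4 and 13.8 RPM in the crosslinked inputs and 7.98 and 10.1 RPM in the pull-downs. Its log2 ratio was -0.65 (SE 0.18, adjusted p 0.0362), and the non-crosslinked pull-down, at 6.71 RPM, was below its input at 10.6 RPM. The calls of Rplp1 and Rps23 ended without crosslinked pull-down 1 (adjusted p 0.198 and 0.235) and without crosslinked input 1 (0.194 and 0.190). The call of Rpl12 ended without pull-down 1 (0.186), input 1 (0.260) or input 2 (0.0934). Rplp1, Rpl12 and Rps23 were also not called with TMM factors, with rRNA left out of the library sizes, or with DESeq2. The calls of Rpl6 and Rpl22l1 did not end without any 1 library.

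Among the genes called higher, Rps13 rose most. Rps13, a protein of the small subunit (chr7:116331507-116334190), had 20.1 and 16.8 RPM in the crosslinked inputs and 36.0 and 33.8 RPM in the pull-downs. Its means were 18.5 ± 2.286 and 34.9 ± 1.52 RPM (SD, n = 2 each), a log2 ratio of 1.01 (SE 0.18, edgeR's adjusted p 0.0011), or 2.01-fold. Without crosslinking it stood at 13.8 RPM before and 27.2 RPM after the beads. Every pull-down exceeded every input.

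Rpl7a, a large subunit protein of the family that binds kink-turn RNA (chr2:26910685-26913312), had 42.2 and 27.1 RPM in the crosslinked inputs and 53.1 and 62.4 RPM in the pull-downs, with 23.1 and 50.6 RPM without light. The inputs differed from each other by more than those of the other called genes (SD 10.7 RPM), and the log2 ratio was 0.83 (SE 0.22, adjusted p 0.0278). Rps29, a zinc-binding protein of the small subunit (chr12:69157722-69159186), had 5.96 and 7.22 RPM in the crosslinked inputs and 8.62 and 10.4 RPM in the pull-downs, and 1.91 and 2.51 RPM without crosslinking (log2 ratio 0.62, SE 0.18, adjusted p 0.048). The call of Rpl7a ended without pull-down 2 (adjusted p 0.152) or input 2 (0.263), and that of Rps29 without pull-down 1 (0.0597), pull-down 2 (0.332) or input 1 (0.341), whereas Rps13 was called without each of the 4 libraries.

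**Figure D2:**
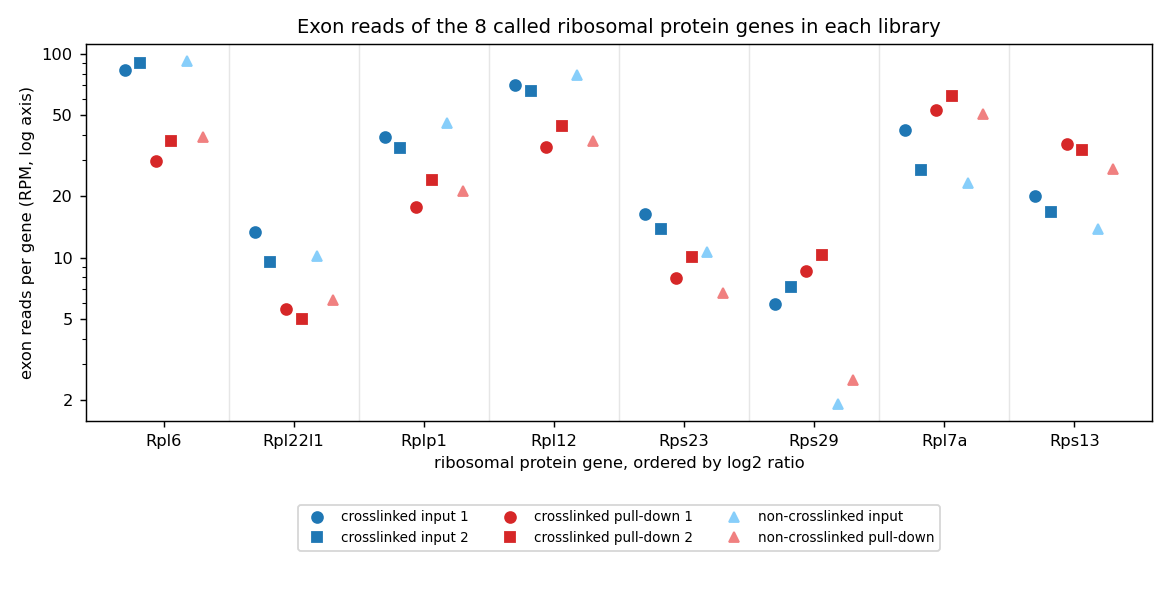
Exon reads of the 8 called ribosomal protein genes in every library, in RPM on a log axis; circles and squares are the crosslinked libraries 1 and 2, triangles the non-crosslinked ones, blue inputs and red pull-downs. Pull-downs lie below inputs in the 5 genes on the left and above them in the 3 on the right, within each treatment; for Rps29 both non-crosslinked libraries lie below all crosslinked ones.

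The other genes with the most reads did not pass the test. Rpl4 had 72.4 and 66.9 RPM in the crosslinked inputs and 56.1 and 57.0 RPM in the pull-downs (log2 ratio -0.21, adjusted p 0.578), and Rps2 had 56.9 and 51.7 against 31.5 and 45.6 RPM (-0.40, adjusted p 0.283). For Rpl32 (52.6 and 49.2 RPM against 41.3 and 50.1 RPM) and Rps12 (55.0 and 41.6 RPM against 44.6 and 53.4 RPM) pull-downs and inputs overlapped. Rpsa, a small subunit protein also known as a laminin receptor, had 41.2 and 32.0 RPM against 34.9 and 46.4 RPM and overlapped as well. These levels count reads per gene and not per length, so they give no order of mRNA abundance.

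The paralogs other than Rpl22l1 were not called, and Rps27rt came nearest. Rps27rt, a single-exon retrogene of Rps27, had 2.99 and 2.72 RPM in the crosslinked inputs and 3.68 and 5.21 RPM in the pull-downs (log2 ratio 0.74, SE 0.22, adjusted p 0.0576), while the non-crosslinked pull-down, at 1.21 RPM, was below its input, at 1.43 RPM. Its parent Rps27 had a log2 ratio of 0.22 (adjusted p 0.578), and reads of so similar a copy can be assigned to either gene. Rpl38, known for its part in the translation of Hox mRNAs, had 1.42 and 1.29 RPM against 2.28 and 2.27 RPM (log2 ratio 0.83, adjusted p 0.0667). Both Rpl38 and Rps27rt were called with TMM factors. Rpl7l1 (log2 ratio -0.53, adjusted p 0.134) and Rpl36al (0.19, adjusted p 0.714) were not called. Pseudogene features with names ending in -ps, 140 of them, held between 26.5 and 45.3 RPM in all and were not counted here.

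The non-crosslinked pair shows what the beads retained without a covalent bond, from 1 library each and so with no replicate check. On the log2(RPM + 1) scale, which understates changes of low genes, the median ratio of the 81 genes was -0.18 (-0.096 with annotated reads as the total and -0.11 with 5 RPM added), beside -0.31 for all genes, and 57 of the 81 ratios were below 0, where 78.1% of all genes were. Rpl7a had the highest ratio (1.10), the only 1 of at least 1 (3.05% of all genes), followed by Rps13 (0.93). At -1 or lower were 5 genes (5.8% of all genes), namely Rpl31 (-1.25), Rpl6 (-1.21), Rpl27 (-1.09), Rplp1 (-1.08) and Rpl12 (-1.06). The sign of the non-crosslinked ratio was that of the crosslinked ratio on the same scale for 61 of the 81 genes, where 79.1% of all genes had equal signs, and for all 8 called genes.

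A fit of all 6 libraries tested whether the crosslinked ratio differed from the non-crosslinked ratio, with the lone non-crosslinked libraries assumed to vary like the crosslinked ones. edgeR called 0 of the 81 genes (0.0266% of all genes were called with a higher and 0.146% with a lower crosslinked ratio), and 4 had an unadjusted p under 0.05, where 11% of all genes did. For these 4 the difference in log2 ratio was 1.16 (SE 0.35) for Rpl27, 0.78 (SE 0.34) for Rps27a, which makes a ribosomal protein fused to ubiquitin, 0.77 (SE 0.36) for Rpl31 and -0.80 (SE 0.32) for Rpl23a, with adjusted p between 0.24 and 0.444. For the 8 called genes it lay between -0.41 and 0.29 with standard errors between 0.32 and 0.43. With errors of this size and 1 library in each non-crosslinked group, the lack of a call does not show that the ratios are equal.

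**Figure D3:**
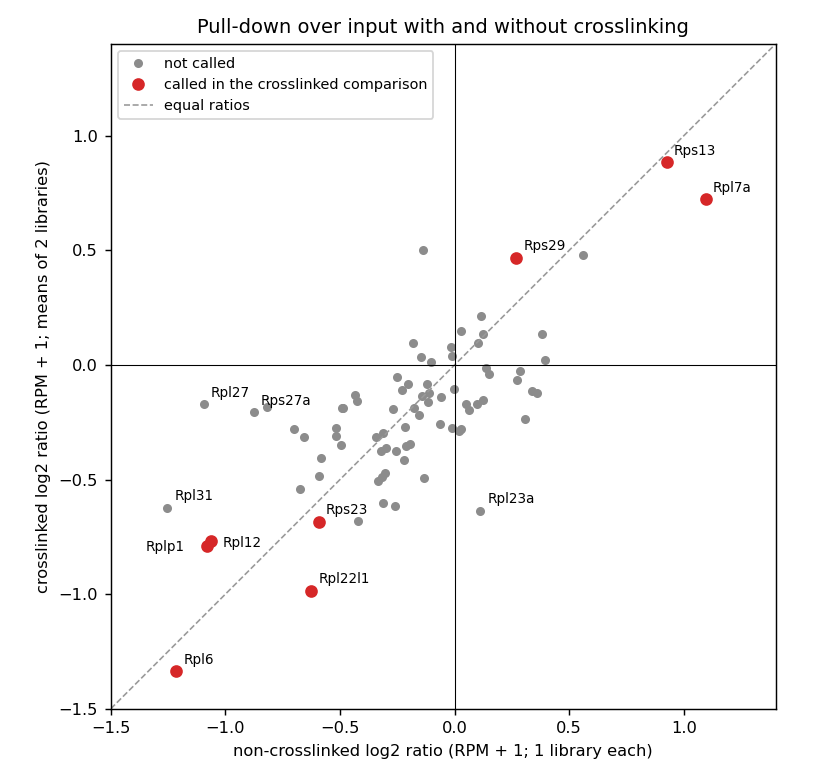
Log2((RPM + 1) pull-down over (RPM + 1) input) of the 81 tested genes, without crosslinking on the horizontal axis (1 library each) and with crosslinking on the vertical axis (means of 2 libraries each); red marks genes called in the crosslinked comparison, and labels also name the 4 genes with an unadjusted interaction p under 0.05. All 8 called genes have the same sign on both axes, from Rpl6 (-1.34 crosslinked, -1.21 not) to Rpl7a (0.72 and 1.10).

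Within a gene, the reads were uneven over the exons. The single most read exon feature held a median of 33.1% of a gene's exon reads, and over 50% in 17 of the 81 genes, among them Rps12 with 76.2% and the single-exon Rps27rt with all of its reads. The files give no coordinates or lengths of exons, and versions of an exon from different isoforms can share reads, so exon features of a gene are not independent of each other. In the fit of single features, 324 exons of 79 ribosomal protein genes were tested; 6 were called higher (4.69% of all exon features, 6.41% of tested features of every class) and 27 lower (4.31% and 3.47%). The 6 higher exons lay in 3 genes and the 27 lower ones in 21. The split depended on scaling and on single libraries: it was 14 and 12 with TMM factors, 18 and 13 without crosslinked pull-down 1, 4 and 15 without pull-down 2, 10 and 13 without input 1, and 5 and 42 without input 2.

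In Rpl6, 1 feature held most of the difference. That feature, Rpl6_exon1_3, held 52.3% of the gene's exon reads. It had 45.9 and 60.3 RPM in the crosslinked inputs and 7.26 and 12.4 RPM in the crosslinked pull-downs (log2 ratio -2.34, SE 0.31, edgeR's adjusted p 0.00485). Without crosslinking it had 62.3 RPM before and 18.3 RPM after the beads. The 10 other tested exon features of Rpl6 had ratios between -0.49 and -0.34, and none was called. Without that feature the gene summed to 37.0 and 29.8 RPM in the crosslinked inputs and 22.6 and 25.1 RPM in the pull-downs, or -0.47 on the log2(RPM + 1) scale in place of -1.34 with it. Pull-downs were still below inputs.

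In Rpl12, exons went both ways. Rpl12_exon3_2 had 32.7 and 31.1 RPM in the crosslinked inputs and 12.0 and 13.3 RPM in the pull-downs (log2 ratio -1.24, SE 0.16, adjusted p 0.00514), and its isoform version Rpl12_exon3_3 fell in the same way (-1.35, adjusted p 0.0069). Rpl12_exon1_1, at a far lower level, rose from 1.46 and 1.19 RPM to 2.75 and 4.55 RPM (log2 ratio 1.56, SE 0.30, adjusted p 0.0251). Without Rpl12_exon3_2, which held 41.3% of the gene's reads, the log2(RPM + 1) ratio of the gene was -0.42 in place of -0.77.

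Rplp1 has 2 tested exon features: Rplp1_exon1_1 fell from 19.8 and 16.8 RPM to 5.52 and 9.26 RPM (log2 ratio -1.22, adjusted p 0.037), and Rplp1_exon3_1, with 18.9 and 17.3 RPM against 11.5 and 14.1 RPM, was not called (-0.40, adjusted p 0.245). Without crosslinking the former had 25.5 RPM before and 5.65 RPM after the beads, and the latter 20.5 and 15.5 RPM. Rps2 had no call as a gene, but its feature Rps2_exon2_5 fell from 28.4 and 25.9 RPM to 9.95 and 13.6 RPM (log2 ratio -1.11, adjusted p 0.0208). Without that feature Rps2 stood at 28.5 and 25.8 RPM against 21.6 and 32.0 RPM, and the groups overlapped. In Rpl31, Rpl31_exon4_2 fell from 4.99 and 3.26 RPM to 1.51 and 0.96 RPM (-1.65, adjusted p 0.0186), and is among the 3 lowest called exon ratios with Rpl6_exon1_3 and Rpl17_exon6_2 (-1.56, adjusted p 0.00804).

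Of the 5 tested exon features of Rps13 4 were called higher, versions of exons 2 and 3 that may share reads, led by Rps13_exon2_1, which went from 2.17 and 1.89 RPM in the crosslinked inputs to 7.21 and 6.39 RPM in the pull-downs (log2 ratio 1.82, SE 0.17, adjusted p 0.00098), with 1.75 and 5.49 RPM without crosslinking. Rps13_exon3_3 followed with a log2 ratio of 1.63 (adjusted p 0.0014), and Rps13_exon5_7 was not called (-0.62, adjusted p 0.344). Rpl7a_exon1_6 and Rpl7a_exon6_3 had nearly equal values in every library, with 16.8 and 10.5 RPM against 23.1 and 27.9 RPM in the former (log2 ratio 1.00). Neither passed the test (adjusted p 0.0636 and 0.0622). Of the 6 exons called higher, Rpsa_exon1_5 was the single exon in a gene without a call, with 6.93 and 6.35 RPM against 10.3 and 14.6 RPM (log2 ratio 1.00, adjusted p 0.0356) and 1.56 and 3.74 RPM without crosslinking.

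**Figure D4:**
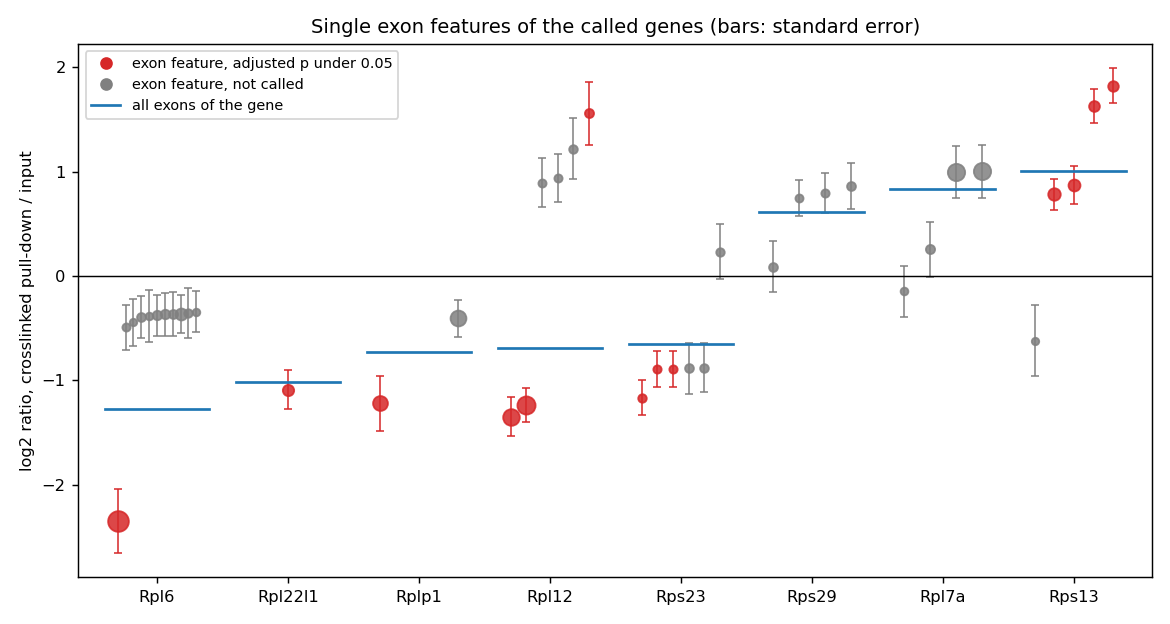
Log2 ratio of crosslinked pull-down over input for single exon features of the 8 called genes, with bars of 1 standard error; circles grow with the mean RPM, red marks an adjusted p under 0.05 and the blue line is the ratio of the whole gene. In Rpl6 1 large feature lies at -2.34 and 10 others between -0.49 and -0.34, in Rpl12 features lie on both sides of 0, and in Rps13 4 of 5 were called higher.

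Pre-mRNA features of 23 of these genes fell and none rose. The files hold pre-mRNA features for 81 ribosomal protein genes, and 72 were tested, of which edgeR called 23 lower (11.4% of all pre-mRNA features) and 0 higher (0.469%), with 48 lower and 0 higher at an unadjusted p under 0.05, where 43.5% and 0.625% of all pre-mRNA features were. The median log2 ratio was -0.71, beside -0.52 for all 2561 pre-mRNA features tested, and the ratio was below 0 in 68 of the 72. For 62 of the 72 genes the pre-mRNA ratio was below the exon ratio, a difference that was not tested. The medians over all genes tested were ordered likewise, at -0.52 for pre-mRNA features and -0.16 for exon reads per gene. Shares of all genes for the counts of 68 and 62 were not computed. Of the 23, 10 were among the 28 tested hosts of a snoRNA and 13 among the 44 other genes. The count fell to 13 without crosslinked input 1 and to 10 without crosslinked pull-down 1.

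Among the pre-mRNA features with the lowest ratios, Rps18 had 2.63 and 2.55 RPM in the crosslinked inputs and 0.124 and 0.758 RPM in the pull-downs (log2 ratio -2.45, SE 0.44, adjusted p 0.0186), where pull-down 1 holds no more than a few reads. Rpl31 had 8.82 and 8.80 RPM against 3.04 and 1.96 RPM (-1.72, SE 0.21, edgeR's adjusted p 0.00375). Rpl22 had 1.43 and 1.63 RPM against 0.434 and 0.632 RPM (-1.42, adjusted p 0.0187). The pull-downs of Rps18 and Rpl22 lay under 1 RPM, so these features reached the filter only through the inputs. Both count among the 23 in the paragraph above. Of the genes called lower over exons, Rpl6 (15.3 and 13.7 RPM against 7.26 and 7.90 RPM, log2 ratio -0.85) and Rplp1 (5.73 and 5.32 RPM against 1.43 and 2.78 RPM, -1.30) were also called lower as pre-mRNA. The pre-mRNA of Rpl12 (log2 ratio -0.47, adjusted p 0.121) and Rps23 (-0.47, adjusted p 0.216) was not called, and that of Rpl22l1 was under the filter. Of the genes called higher over exons, Rpl7a (-0.63, adjusted p 0.176) and Rps29 (-0.18, adjusted p 0.685) had pre-mRNA ratios below 0 that were not called, and Rps13 was under the filter. Without crosslinking, 64 of the 72 ratios were below 0, with a median of -0.36.

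Introns gave fewer reads. The naming rule took 80 genes with intron reads, among them Rpl39l, which is not among the 85 genes. Of the 80, 25 reached 1 RPM and were tested among 7827 genes. In this fit 4 were called higher (5.31% of all genes) and 3 lower (1.01%). Hosts of a snoRNA made up 14 of the 25, with 3 called higher and 2 lower, and the other 11 had 1 called in each direction. Of the genes below, Rpl7a, Rpl23a, Rpl17, Rps16 and Rpl23 are hosts. Whether reads of their snoRNAs entered the intron counts was not tested. Introns of Rpl7a rose from 1.30 and 1.33 RPM in the crosslinked inputs to 5.35 and 6.95 RPM in the pull-downs (log2 ratio 2.31, SE 0.21, adjusted p 0.000305), and had 0.406 and 6.06 RPM without crosslinking. Rps14 (log2 ratio 1.59, adjusted p 0.00654), Rpl23a (1.10, adjusted p 0.00599) and Rpl17 (0.81, adjusted p 0.0244) followed. Rps14 had 0.654 and 0.697 RPM in the crosslinked inputs and 1.66 and 2.15 RPM in the pull-downs. It thus reached the filter of 1 RPM only through the pull-downs. Introns of Rps16 fell from 18.8 and 18.0 RPM to 1.42 and 2.53 RPM (log2 ratio -3.12, SE 0.20, adjusted p 8.24e-05), and had 17.9 and 1.04 RPM without crosslinking. Those of Rpl23 fell from 19.6 and 19.4 RPM to 4.31 and 5.92 RPM (-1.83, adjusted p 0.000175), and Rps28 was the third (-0.79, adjusted p 0.0417). The exons of Rps16, Rpl23 and Rpl23a had log2 ratios of -0.21, -0.29 and -0.58 and were not called.

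Coordinates of RefSeq place 59 snoRNAs inside the spans of 30 of the 85 genes. The files list 44 of them by the same name, and all 44 were tested: 8 were called higher and 10 lower, where 18.7% of all snoRNA features were called higher and 21.2% lower. By type, the values were as follows. Of the 12 H/ACA snoRNAs (names beginning with Snora) 9 were called lower and 0 higher (0 higher and 10 lower at an unadjusted p under 0.05, edgeR), both crosslinked pull-downs were below both inputs for all 12, and the median log2 ratio was -2.27. Over all snoRNA features tested, both pull-downs were below both inputs in 37.2% and above both in 34.7%. Of the 21 C/D snoRNAs (Snord) 6 were called higher and 0 lower (14 and 0 at an unadjusted p under 0.05), and the median was 0.96. Of all snoRNA features, 33.9% were higher and 30.6% lower at that unadjusted threshold. The difference between the types was not tested. Without crosslinking, all 12 H/ACA ratios were below 0 (median -2.66 on the log2(RPM + 1) scale), and 5 of the 21 C/D ratios were (median 0.34).

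At both ends of the snoRNA range, the exons of the host lay nearer 0. Snora64, inside Rps2 (chr17:24720789-24720905 of GRCm38.p6), fell from 311.6 and 346.8 RPM in the crosslinked inputs to 10.3 and 32.9 RPM in the pull-downs (log2 ratio -3.83, SE 0.55, adjusted p 0.00726), the lowest of the 44, while the exons of Rps2 had a ratio of -0.40 and were not called. Snord42a, inside Rpl23a (chr11:78181302-78181346), rose from 2.78 and 1.79 RPM to 15.3 and 17.9 RPM (2.96, SE 0.23, adjusted p 0.000557), beside exons at -0.58. Exon ratios of the 30 hosts had a median of -0.18 with 2 genes called higher and 2 lower, and those of the 51 other tested genes a median of -0.10 with 1 and 3.

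In 3 hosts with a call, exons and snoRNA had ratios of the same sign. Rps13, called higher over exons, hosts Snord14a (chr7:116333171-116333257), which rose from 7.93 and 8.70 RPM to 12.3 and 18.0 RPM (log2 ratio 0.96, adjusted p 0.0497). Rpl7a hosts Gm23969 (chr2:26911261-26911334), a snoRNA whose name does not give its type, which rose from 11.2 and 10.9 RPM to 41.3 and 64.1 RPM (2.35, SE 0.26, adjusted p 0.00225). Rpl12, called lower, hosts Snora65 (chr2:32963301-32963418), with 77.9 and 104.9 RPM against 33.7 and 62.9 RPM (-0.83, adjusted p 0.212). For Rpl6, RefSeq places 1 snoRNA in its span, at chr5:121205010-121205143, for which no value is used here. Whether exon features such as Rpl6_exon1_3 or Rpl12_exon3_2 cover a snoRNA cannot be read from the files, and the part of hosted snoRNAs in the exon ratios was not tested.

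**Figure D5:**
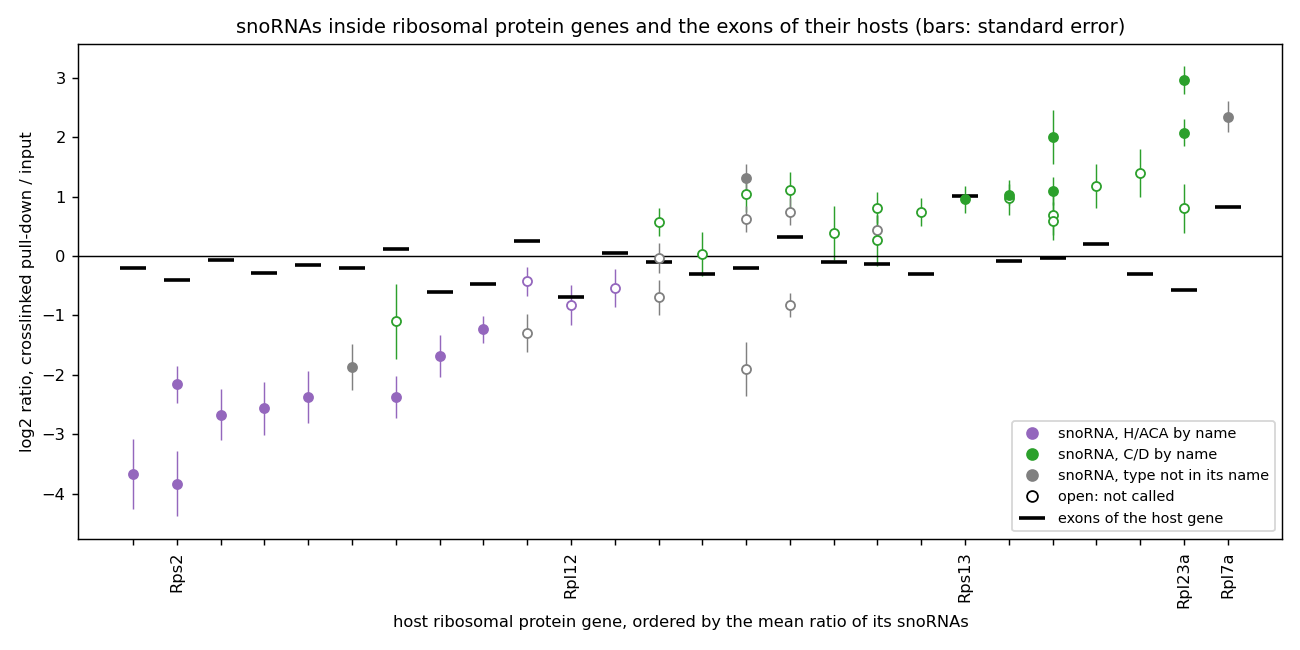
Log2 ratio of crosslinked pull-down over input for the 44 tested snoRNAs inside 26 ribosomal protein genes, with bars of 1 standard error; purple is H/ACA, green C/D, grey a type not given by the name, open circles were not called, black dashes are the exons of the host, and labels are given for hosts described in the text. All 12 H/ACA snoRNAs lie below 0 (from -3.83 to -0.43), 20 of the 21 C/D snoRNAs lie above 0, and most host exons stay near 0.

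Other translation genes are given for comparison, from lists set up with earlier results of these data known, and are read against the 3.97% of all genes called higher, the 2.07% called lower and the 21% with an unadjusted p under 0.05. Of 20 other TOP mRNAs tested, 0 were called higher and 3 lower (Tpt1, Nap1l1 and Eif4a2; 9 had an unadjusted p under 0.05), with a median log2 ratio of -0.36. Eif4a2, an RNA helicase of translation initiation, fell from 255.5 and 234.6 RPM to 68.6 and 88.5 RPM (-1.55, adjusted p 0.000221). Fau and Rack1, ribosomal proteins outside the naming rule, were not called, with log2 ratios of -0.43 and -0.35. Of 24 other translation factors, 1 was called higher (Eif3g, 1.22) and 3 lower (Eif2s3x, Eif4g2 and Eif5, the last at -1.93), with 8 at an unadjusted p under 0.05 and a median of -0.18. Of 29 ribosome assembly factors, 2 were called higher (Nop56, a core protein of C/D snoRNA particles, 1.51, and Pes1, 0.75) and 0 lower, with 7 at an unadjusted p under 0.05 and a median of -0.10. Of 37 mitochondrial ribosomal proteins, 1 was called in each direction (Mrpl33 and Mrps9), with 3 at an unadjusted p under 0.05 and a median of -0.16.

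The authors' deposited table gives an enrichment ratio by a formula not given in the sources used here, and in it 1242 exon features of 81 ribosomal protein genes had a value, or 701 with identical values of a gene counted once. Their median in the authors' deposited table was 0.918, beside 1.32 over all 48456 exon features, and 44.4% of them (552) were above 1, against 67.0% of all exon features. The highest in the authors' deposited table was 45.9, for Rpl35a_exon1_8, at rank 423 of the list. The only exon feature of Rpl35a tested here had a log2 ratio of -0.20. The read level of Rpl35a_exon1_8 is not given here, and a ratio from few reads can be large. Among named genes, the authors' deposited table gives 29.5 for Rpsa_exon1_1 and 3.85 for Rps13_exon2_1, the exon with the highest called ratio above. The tested exon features of Rpsa had log2 ratios no higher than 1.00, and the read level of Rpsa_exon1_1 is likewise not given. For Rpl12, called lower as a gene, the authors' deposited table gives 4.61 for Rpl12_exon1_5 and 0.404 for Rpl12_exon3_2. For Rpl6_exon1_3 it gives 0.131.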

How the data were processed

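Reads were counted over annotated features in 6 eCLIP libraries. The authors deposited an expected count per feature, with reads that match several features of a class split in equal fractions, and RPM values, the same counts scaled to all reads of the library, unannotated ones included. They also deposited 1 enrichment ratio per feature. The submitters' processing notes name bcl2fastq 2.19, STAR 2.5.2b, bedtools 2.29.0 and mm10, with no role; annotation, strand and duplicate removal are not given in the sources used here.

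Exons were summed per gene with identical features counted once, which left out a median of 20.6% of a gene's reads (0 to 66.1%), and rounded. edgeR 4.0.16 (R 4.3.3) tested 7532 genes by quasi-likelihood with annotated reads as library size and no further factors, and Benjamini-Hochberg adjustment over all of them; introns and single features were fitted likewise. Standard errors were taken from the ratio and its F statistic. The scripts were tested on simulated data. Named genes were chosen by rule: up to 6 called in each direction, the 6 most read, the stalk proteins and Rpsa, the extremes of the non-crosslinked ratio, paralogs, and members of counts of 5 or fewer; Rpl22, Rps27, Rpl38 and the named snoRNAs were chosen after their values were seen. The members and lists were chosen with earlier results of these data known. Alternatives were other filters, scalings and tests, a replicate block, all features summed, and each crosslinked library left out. Replicate numbers were not used as pairs. All 85 genes matched RefSeq (GRCm38.p6), which gave spans, hosted snoRNAs and start sequences; sequences of chromosome 18 are not shown.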

Additional observations from a re-analysis of the deposited data

How the results depend on the processing

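Of the 8 calls, Rpl6 (log2 ratio from -1.46 to -1.10) and Rps13 (0.89 to 1.17) held under all 14 alternatives run; Rpl22l1 held in 11 of 13, Rpl7a in 10 of 14, Rplp1 in 7 of 14, Rps23 in 6 of 14, Rps29 in 6 of 13 and Rpl12 in 5 of 14. The counts of 3 higher and 5 lower became 1 and 1 with no filter, 5 and 2 with TMM factors, 2 and 11 with unannotated reads in the library sizes, 4 and 2 with rRNA left out of them, 2 and 1 with DESeq2, 2 and 10 with limma on log2(RPM + 1), and 2 and 3 with the replicate number as a block. Leaving out 1 crosslinked library gave 1 to 3 higher and 2 to 8 lower. The median log2 ratio, -0.12, was 0.041 with TMM factors and 0.039 with DESeq2, and lay between -0.28 and -0.015 without 1 library. Called exon features, 33 in all, numbered between 19 and 47 and lower pre-mRNA features, 23, between 10 and 32 without 1 library; the latter were 13 with TMM factors. With TMM factors the called exons split into 14 higher and 12 lower, in place of 6 and 27. Over all genes the 299 higher and 156 lower calls became 237 calls with no filter, 109 of 836 genes at 10 RPM, 780 with unannotated reads, 231 with DESeq2, 685 with limma and 277 without pull-down 2. No called gene changed sign. Among named genes without a call, Rpl32 (-0.062) turned to 0.092 with TMM factors, 0.048 with rRNA left out and 0.089 with DESeq2, and ranged from -0.22 to 0.083 without 1 library. Rplp2 (0.054) turned to -0.040 with unannotated reads and -0.029 with limma, and ranged from -0.14 to 0.28 without 1 library. Rps12 (0.12) ranged from -0.059 to 0.31. Of 259 values of named genes, 206 kept direction and call, 37 lost the call and 6 gained it; apart from the counts given, the cause was not tested.

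Same-numbered crosslinked libraries deviated together only weakly (correlation 0.0881 over 7532 genes), so the numbers were not taken as pairs; with the replicate block, Rpl12, Rpl7a, Rplp1 and Rps23 were no longer called, Rpl31 was, and 31 exon features, 8 introns and 19 pre-mRNA features were called. Within same-numbered libraries the log2 ratio of the share of reads averaged -0.27. With 2 libraries a group, ratios of single genes carry standard errors between 0.16 and 0.26, and genes near 1 RPM rest on few reads. Isoform versions can share reads, and exon length and strand are not given, so neither levels between genes nor overlapping genes can be set apart. A ratio is relative to the other RNA of a library, and libraries held 58.2 to 70.1% rRNA.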
